A study of Homo sapiens with 12 samples.

Results

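The mRNA levels of 6 drug efflux transporters of the ATP-binding cassette (ABC) family, ABCB1, ABCC1, ABCC2, ABCC3, ABCC5 and ABCG2, were examined in Rh30 cells with and without stable knockdown of PAX3-FKHR. They were taken from the array by gene symbol, which gave 8 of its 41000 gene probes and 6 of the 30238 gene names it lists. ABCC2 and ABCC5 had 2 probes each and the other genes 1. Of the 8 probes, 3 (the ABCC1 probe and both ABCC5 probes) were bright enough to be tested, none of the 9 tests passed the adjusted threshold, and the ABCB1 probe was not well above background in any culture. Both ABCC2 probes were higher in the knockdown clone than in the control clone on all 4 arrays of that comparison, with mean log2 ratios of 1.00 and 1.01, but their signals were too low to be tested with the main filter.

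ABC transporters use the energy of ATP to move molecules across membranes, and their nucleotide-binding domains carry a short conserved signature motif. The genes described here encode pumps of the plasma membrane that can export anticancer drugs, so that a cell with more of a pump can hold less of a drug. ABCB1 (P-glycoprotein) and ABCG2 (breast cancer resistance protein) export mainly hydrophobic compounds, and puromycin is a known substrate of ABCB1. The ABCC members, also called multidrug resistance proteins, export organic anions such as drugs joined to glutathione or glucuronic acid.

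Rh30 is an established cell line of alveolar rhabdomyosarcoma, a muscle-type tumor of childhood, and carries the PAX3-FKHR (PAX3-FOXO1) fusion. Untransfected parental cells (WT), a control clone with a non-targeting shRNA (CON) and a clone with an shRNA against PAX3-FKHR (KD1) were compared. Each clone is 1 line, so an effect of the shRNA and a difference between clones cannot be told apart. Puromycin (1 μg/mL) was present in the medium of both clones and absent from that of WT, so every ratio against WT also compares cells with and without the drug, whereas the ratio of the clones does not. All cultures were grown for 24 h in medium with 10% serum before RNA extraction, and none received another agent. The pairs KD1 vs CON, KD1 vs WT and WT vs CON had 2 biological replicates apiece, and each replicate was hybridized as a dye-swap pair, giving 12 two-color arrays of 6 extracts. The 3 comparisons share extracts and are not independent. In bulk RNA, fewer cells of a type and less RNA per cell cannot be told apart.

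The WT extract of replicate 2 stood apart from the other extracts in epithelial markers. The KD1 extracts also differed from each other, with 103 probes higher and 8 lower in replicate 2 by at least 2 on the log2 scale against both other cultures, beside 48 and 83 for WT and 15 and 8 for CON. Of the 5 epithelial markers measured, EPCAM was well above background on 4 of 4 arrays with the WT extract of replicate 2 and on none of the arrays with another extract, and CDH1 on 2 of 4 and on none. Relative to the WT extract of replicate 1, that extract was higher in EPCAM by 5.19 (against CON) and 5.69 (against KD1), in KRT19 by 2.98 and 3.51 and in CDH1 by 2.11 and 1.89 on the log2 scale, while the brightest probes of KRT8 and KRT18 differed by at most 0.24. The other KRT18 probes were higher there, by 1.03 and 1.54 (A_23_P99320) and by 1.197 and 1.586 (A_24_P42136). Of 10 markers of fusion-positive rhabdomyosarcoma, 9 were well above background in all 24 channels and TFAP2B in none, and of these MYOG was lower in WT than in CON (mean log2 ratio −1.73 ± 0.33, SD, n = 2, adjusted p = 0.0185, or 0.114 without the WT extract of replicate 2). The WT extract of replicate 2 minus that of replicate 1 was −1.36 (against CON) and −1.56 (against KD1) for CHRNG and −0.90 and −0.93 for CDH15. CHRNA1, CHRND, DES, FGFR4 and MYOD1 were also below 0 along both, while MYOG (0.46 and 0.28) and ACTC1 (0.0045 and 0.19) were above 0. Of 4 leukocyte and 4 endothelial markers, 2 and 1 were well above background in all 24 channels, with PTPRC and KDR in none. In addition, the dye orientations of KD1 vs WT replicate 2 correlated with 0.448 over 21870 probes, against 0.840 to 0.888 for the other 5 pairs, although the mean of that pair correlated with 0.974 with the value derived through CON. The transporters are therefore given per array, and the tested means against WT also without the WT extract of replicate 2, an alternative chosen after these values were seen. Those means then rest on 1 replicate, whose spread is taken from KD1 vs CON alone. The intervals of KD1 vs CON change as well, though its means do not. The part of these epithelial transcripts in any transporter value was not tested.

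As a check of the knockdown, the brightest PAX3 probe had a mean log2 ratio of −0.42 ± 0.04 for KD1 against CON and −0.39 ± 0.08 for KD1 against WT, and the brightest FOXO1 probe −0.42 ± 0.23 and −0.60 ± 0.26 (SD, n = 2 each). All 4 arrays of both comparisons were below 0 with either probe, and none of the 4 means passed the adjusted threshold. These probes cannot separate the fusion transcript from those of the unrearranged genes.

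**Figure D1:**
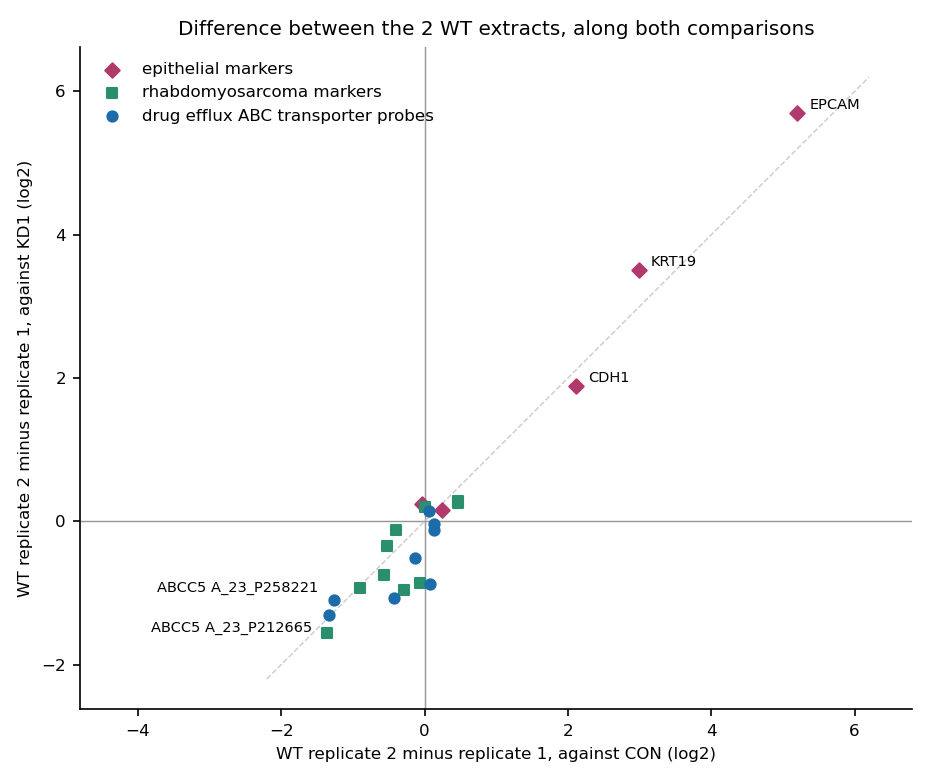
Log2 difference between the WT extracts of replicate 2 and replicate 1, measured against CON (x axis) and against KD1 (y axis); each point is 1 probe of an epithelial marker, a rhabdomyosarcoma marker or a transporter, and the dashed line marks equal values. EPCAM, KRT19 and CDH1 lie between 1.89 and 5.69 on both axes, and both ABCC5 probes between −1.336 and −1.103.

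The sequences of 4 probes are shown because they define what was measured: each has a reading frame without a stop codon over all 60 bases and is the most upstream such probe of its gene. The files place them on build NCBI36 (hg18) but do not say whether a probe lies in an exon, intron or UTR. The probe of ABCB1 (A_23_P82523) matches transcript NM_000927 and is listed at chr7:86973249-86976539 in descending order, a span of 3291 bases for 60 bases of sequence. Its capitals mark the start of the stretch that encodes the ABC signature motif in the open frame, which runs on past the end of the probe. The ABCC2 probe A_23_P44569 (NM_000392) is listed at chr10:101601312-101601371, the ABCC5 probe A_23_P212665 (NM_005688) at chr3:185127879-185129241 in descending order over 1363 bases, and the ABCG2 probe A_23_P18713 (NM_004827) at chr4:89232450-89232509 in descending order.
ABCB1 A_23_P82523: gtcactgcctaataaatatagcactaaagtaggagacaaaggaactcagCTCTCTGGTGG
ABCC2 A_23_P44569: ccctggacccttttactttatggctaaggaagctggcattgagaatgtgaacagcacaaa
ABCC5 A_23_P212665: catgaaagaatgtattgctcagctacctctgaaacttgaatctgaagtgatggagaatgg
ABCG2 A_23_P18713: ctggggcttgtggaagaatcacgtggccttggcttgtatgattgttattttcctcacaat
The other 4 probes are A_24_P227831 of ABCC1 (chr16:16143525-16143584), A_23_P158976 of ABCC2 (chr10:101601506-101601565), A_23_P207507 of ABCC3 (chr17:46123700-46123759) and A_23_P258221 of ABCC5 (chr3:185120436-185120495, in descending order).

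Each culture occupied 8 array channels, 4 in Cy3 and 4 in Cy5. ABCC1 and both ABCC5 probes were well above background, as judged by the extraction software, in 8 of 8 channels of every culture. ABCG2 was so in 6 channels of WT, 8 of CON and 7 of KD1. ABCC2 was detected less in CON with both probes: A_23_P44569 in 7 channels of WT, 4 of CON and 8 of KD1, and A_23_P158976 in 4, 1 and 5. ABCC3 was detected in 2 of 8 KD1 channels only, and ABCB1 in 0 of 24. Detection of the dim probes differed between the dyes. A_23_P44569 was well above background in 12 of 12 Cy3 channels and 7 of 12 Cy5 channels, A_23_P158976 in 9 and 1, ABCG2 in 12 and 9, and the 2 ABCC3 channels were both Cy3. Each culture was labeled equally often with both dyes, so its counts are balanced in this respect.

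**Figure D2:**
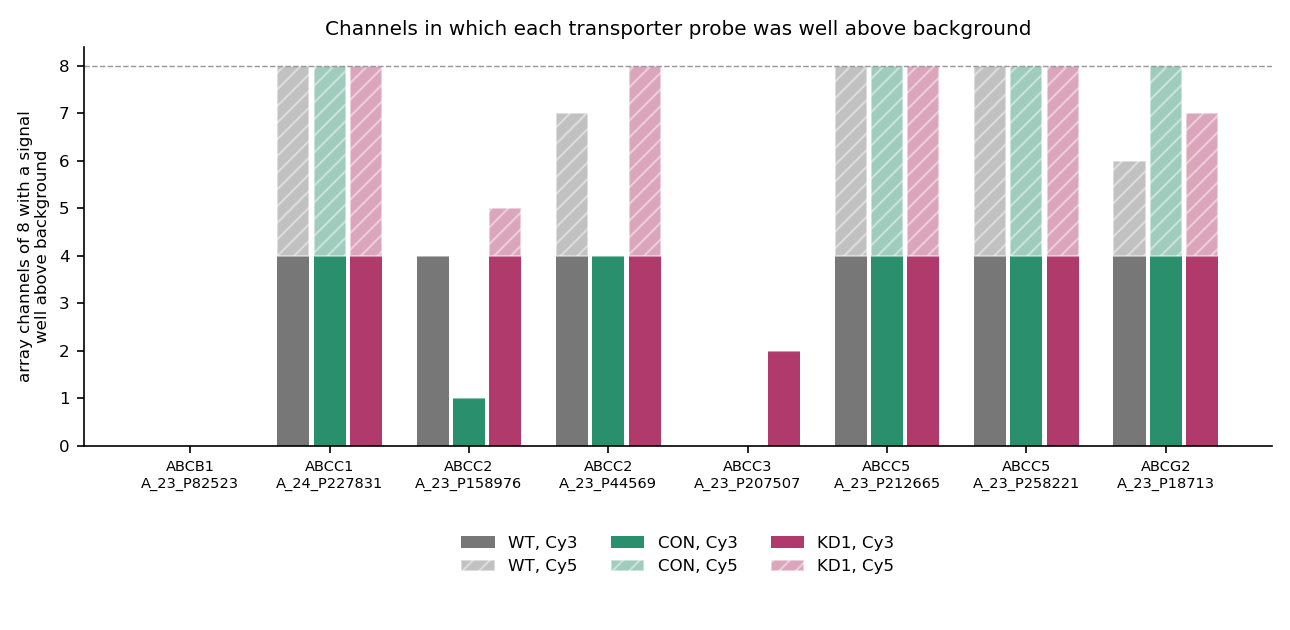
Number of array channels (y axis, of 8 per culture) in which each probe (x axis) was well above background, for WT, CON and KD1, with Cy3 channels in solid and Cy5 channels in hatched color. ABCC1 and ABCC5 reach 8 in every culture, ABCB1 stays at 0, and both ABCC2 probes are lowest in CON.

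Ratios were compared with a limma test fitted to all 6 replicate values, 2 per comparison. The spread of a probe was pooled over the 3 comparisons, so the intervals of KD1 vs CON also carry differences between the WT extracts. To be tested, a probe had to give a signal, after background subtraction, over the 99th percentile of the array's 153 negative controls, in 1 or both channels and on each of the 4 arrays compared. That limit was uneven, from 1.81 to 40.6 in Cy3 and from 2.53 to 40.6 in Cy5. It was highest on the first array of KD1 vs CON replicate 1, so a dim probe could fail on single arrays. By this rule 3 of the 8 probes were tested in each comparison, and none was called: 0 of 3 for KD1 vs CON (1.79% of all tested probes called), 0 of 3 for KD1 vs WT (1.05%) and 0 of 3 for WT vs CON (1.37%). Of these 9 tests 1 (ABCC1 in WT vs CON) had an unadjusted p under 0.05, as did 16.5% to 17.2% of all tested probes. Without any filter none of the 8 probes was called in any comparison, where the share of all probes called was 0.62% (KD1 vs CON), 0.446% (KD1 vs WT) and 0.488% (WT vs CON), and 7 of the 24 tests had an unadjusted p under 0.05, beside 12.5% to 13.9% of all probes. With the software's well-above-background call as the filter, chosen after the signals were seen, 17 tests of members could be made and none was called, against 1.63%, 1.02% and 1.09% of all probes, and 5 had an unadjusted p under 0.05, beside 15.6% to 16.5% of all. In both settings these were ABCC1 in WT vs CON and tests of the dim ABCC2 probes, with ABCC3 added where there was no filter. They come from comparisons that share extracts, so they are not independent. With 2 replicates the intervals were wide, and a ratio that missed the threshold is not shown to be 0. Over the 8 probes the median log2 ratio was 0.33 (KD1 vs CON), 0.20 (KD1 vs WT) and 0.17 (WT vs CON), beside −0.03, 0.06 and −0.02 over all probes. The ratio was above 0 for 7, 6 and 5 of the 8 probes, beside 44.6%, 56.0% and 43.8% of all probes. These counts describe the probes and not the genes, since ABCC2 and ABCC5 enter with both probes and the ratios of ABCB1 and ABCC3 rest on signals near background.

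**Figure D3:**
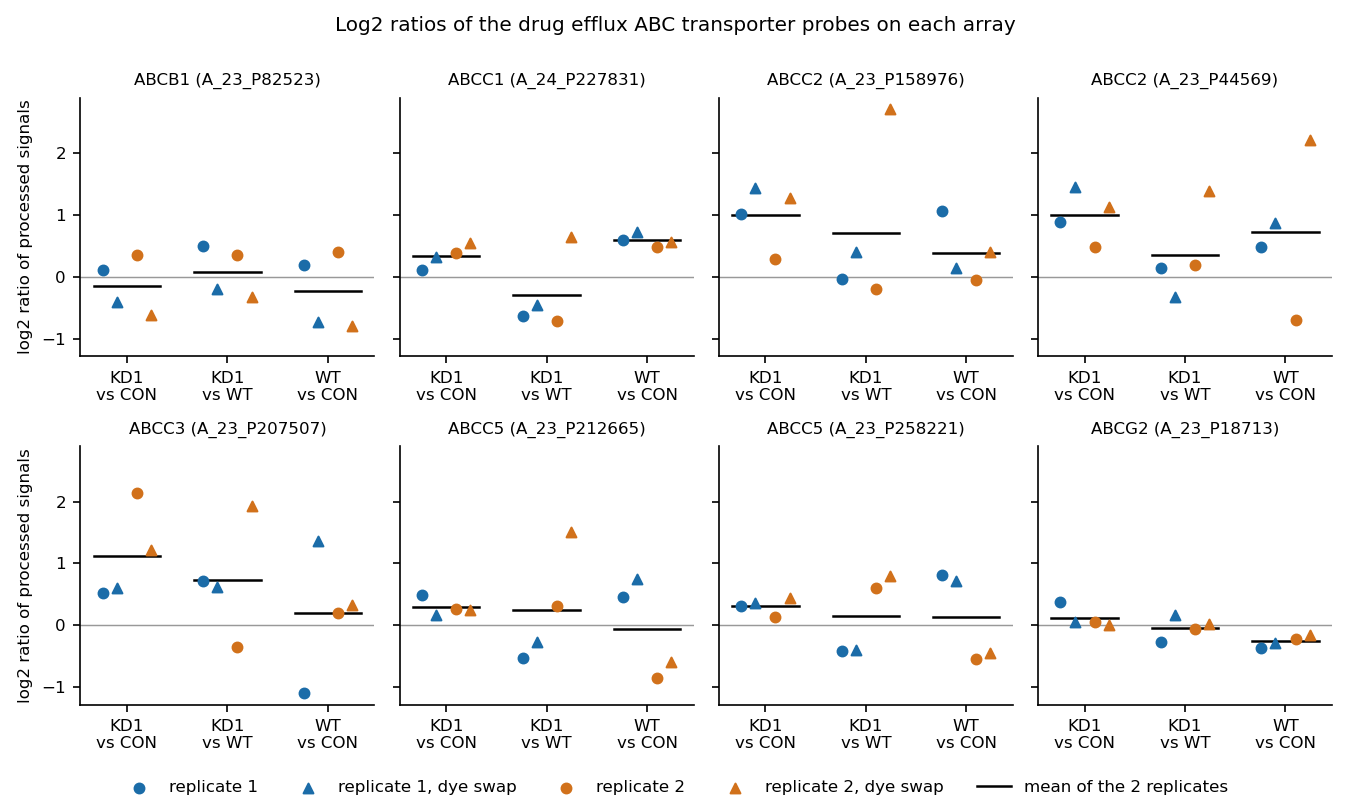
Log2 ratio of the processed signals (y axis) on each of the 4 arrays of every comparison (x axis) for the 8 probes, with color for the replicate, symbol for the dye orientation and a line for the mean of the 2 replicates. Both ABCC2 probes lie above 0 on all 4 KD1 vs CON arrays, ABCC1 lies between 0.49 and 0.72 in WT vs CON, and the ABCC5 replicates of WT vs CON lie on opposite sides of 0.

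ABCB1, the pump known to export puromycin, had 10 spots of its probe on every array, which made it the most often measured of these genes. Of the 240 spot signals, 2 were well above background and 8 exceeded the negative control limit of their channel. Those 2 came from WT in Cy3 (65.6) and KD1 in Cy5 (33.9), and the next highest signal was 5.88. The median background-subtracted signal of the spots was 0.55 in WT, 1.06 in CON and 0.99 in KD1, and that of the negative controls in the same channels −1.14, −1.19 and −1.10. The middle 50% of the spots lay between −0.81 and 1.42 in WT, −0.29 and 2.22 in CON and 0.04 and 1.73 in KD1, so the cultures overlapped. That of the negative controls lay between −1.88 and −0.32 in WT, −1.97 and −0.38 in CON and −1.88 and −0.28 in KD1. The spots thus lay above it in CON and KD1 and overlapped it in WT. Whether this is a faint signal or an offset of the probe was not tested. The software replaced 156 of the 240 signals by a surrogate. The ratio of ABCB1 followed the dye and not the culture: it was above 0 on 6 of 6 arrays of the first orientation and below 0 on 6 of 6 dye-swap arrays. No fold is given for ABCB1, because its probe was not well above background in any culture, and a level in the clones grown with puromycin was not established on these arrays.

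ABCC1 (multidrug resistance protein 1), which exports glutathione conjugates and also vincristine and anthracyclines, was well above background in all channels. In WT vs CON its log2 ratio was 0.60 and 0.72 on the arrays of replicate 1 and 0.49 and 0.57 on those of replicate 2. All 4 arrays were above 0, and the replicates differed less (by 0.14) than those of 79.3% of the tested probes. The mean was 0.60 ± 0.10 (SD, n = 2, a 1.51-fold difference), with a 95% interval from 0.09 to 1.097, an unadjusted p of 0.0262 and an adjusted p of 0.234 from limma.

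The ABCC1 ratio of KD1 to CON was 0.12 and 0.33 in replicate 1 and 0.38 and 0.55 in replicate 2. KD1 was the higher culture on 4 of 4 arrays, with a mean of 0.35 ± 0.17 and a 95% interval from −0.13 to 0.83 (adjusted p = 0.451). Without the WT extract of replicate 2, which changes only the spread here, the interval was −0.02 to 0.71. With the normexp background correction, which adds an offset to both channels, the mean was 0.12, and with median centring it was 0.13, where the median of the tested probes was itself at −0.24. In KD1 vs WT the ratio was −0.62 and −0.45 in replicate 1 and −0.71 and 0.65 in replicate 2, whose arrays disagreed. WT was the higher culture on 3 of 4 arrays, and the mean was −0.28 ± 0.36 with an interval from −0.78 to 0.21 (adjusted p = 0.542). Without the WT extract of replicate 2 it was −0.53, from −1.07 to 0.00296 (adjusted p = 0.198), and WT vs CON was then 0.66 (adjusted p = 0.166). On the mean ratios ABCC1 was highest in WT and lowest in CON, with neighbours that did not differ beyond the intervals.

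ABCC2 (multidrug resistance protein 2), best known from the bile-facing membrane of liver cells, gave weak signals. The background-subtracted signal of A_23_P44569 had a median of 14.5 in KD1, 12.4 in WT and 7.87 in CON. Its log2 ratio in KD1 vs CON was 0.90 and 1.46 in replicate 1 and 0.50 and 1.14 in replicate 2, above 0 on 4 of 4 arrays. The other probe, A_23_P158976, had medians of 7.44, 7.85 and 5.06 and gave 1.02 and 1.44 in replicate 1 and 0.30 and 1.27 in replicate 2, likewise above 0 on every array.

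The mean ratio of ABCC2 in KD1 vs CON was 1.00 ± 0.26 with A_23_P44569 and 1.01 ± 0.32 with A_23_P158976 (SD, n = 2). Over all its 8 channels, those of WT vs CON included, CON was well above background in 4 and 1, so the size of these ratios is uncertain. The signals of the 2 probes exceeded the negative control limit in at least 1 channel on 8 and 7 of the 12 arrays, so neither entered the main test. Fitted without a filter, the 95% intervals were 0.41 to 1.59 and 0.34 to 1.68, with unadjusted p of 0.00566 and 0.00927 and adjusted p of 0.174 and 0.212. The well-above-background filter was chosen after the signals were seen, and 1 channel per array, which can be the brighter culture, is enough. With it the adjusted p from limma were 0.114 and 0.141. The size of this ratio depended on how the background was treated: it was 0.09 and 0.07 with normexp and an offset of 50, and 0.43 and 0.41 with signals floored at the negative control limit and median centring.

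In the comparisons with WT the ABCC2 arrays scattered. In WT vs CON A_23_P44569 had 0.48 and 0.88 in replicate 1 and −0.69 and 2.22 in replicate 2, and A_23_P158976 had 1.07 and 0.15 in replicate 1 and −0.04 and 0.41 in replicate 2. In KD1 vs WT A_23_P44569 had 0.15 and −0.32 in replicate 1 and 0.20 and 1.39 in replicate 2, and A_23_P158976 had −0.03 and 0.40, then −0.20 and 2.71. The means in WT vs CON were 0.72 ± 0.06 and 0.40 ± 0.31, and those in KD1 vs WT 0.36 ± 0.62 and 0.72 ± 0.76. When KD1 vs WT replicate 2 was derived through CON in place of its 2 arrays, the means became −0.02 and 0.40, and in replicate 1 alone they were −0.08 and 0.19. The pair of probes had the same sign on 9 of 12 arrays and differed by a median of 0.49.

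ABCC3 (multidrug resistance protein 3), which exports glucuronides, was near the detection limit. Its background-subtracted signal had a median of 3.56 in KD1, 1.79 in WT and 1.41 in CON, with a highest value of 8.71, and 10 of its 24 channels held a surrogate value. The log2 ratio of KD1 to CON was 0.52 and 0.60 in replicate 1 and 2.14 and 1.22 in replicate 2, and so above 0 on every array, while only 2.64% of tested probes had replicates as far apart. In KD1 vs WT it was 0.72 and 0.62, then −0.35 and 1.94, and in WT vs CON −1.09 and 1.36, then 0.20 and 0.34, which gives no common direction. ABCC3 was not well above background in any channel of CON or WT, and its mean level in KD1 (2.80 on the log2 scale) was below the mean limit of detection of the CON channels (3.93), so no fold is given.

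ABCC5 (multidrug resistance protein 5), an exporter of cyclic nucleotides and nucleotide analogs, was measured by the brightest of these signals and a second, dimmer probe. The background-subtracted signal of A_23_P258221 had a median of 793 in WT, 765 in CON and 845 in KD1, and that of A_23_P212665 had 43.5, 38.6 and 42.2. In WT vs CON the replicates pointed in opposite directions. A_23_P258221 had 0.81 and 0.71 on the arrays of replicate 1 and −0.55 and −0.44 on those of replicate 2, and A_23_P212665 had 0.46 and 0.76, then −0.86 and −0.59. Both probes and both dye orientations thus showed the same split. Of the tested probes, 4.13% and 3.40% had replicates at least as far apart as these, by 1.26 and 1.34.

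The same split of ABCC5 appeared in KD1 vs WT, where A_23_P258221 had −0.41 and −0.39 in replicate 1 and 0.60 and 0.80 in replicate 2, and A_23_P212665 had −0.53 and −0.27, then 0.31 and 1.50. In KD1 vs CON, which holds no WT extract, the replicates lay close together: 0.31 and 0.36, then 0.13 and 0.44 with A_23_P258221, and 0.50 and 0.17, then 0.27 and 0.25 with A_23_P212665. Measured against CON or KD1 of the same replicate, WT was lower in ABCC5 in replicate 2 than in replicate 1. The difference was 1.103 to 1.336 on the log2 scale over both probes. Not all of it lay in WT. As separate channels, A_23_P258221 went from 11.30 to 10.76 in WT, but from 10.56 to 11.15 in CON and 10.90 to 11.46 in KD1. A_23_P212665 went from 7.35 to 6.53 in WT, 6.70 to 7.11 in CON and 6.99 to 7.51 in KD1. The WT extract of replicate 2 is the one with the epithelial transcripts, and whether these bear on ABCC5 was not tested. Over the 12 arrays both probes had the same sign on 12 and a median difference of 0.19.

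With both replicates the mean ratios of ABCC5 were small. In KD1 vs CON they were 0.31 ± 0.04 (95% interval −0.42 to 1.04, adjusted p = 0.690) with A_23_P258221 and 0.30 ± 0.05 (−0.49 to 1.09, adjusted p = 0.734) with A_23_P212665, above 0 on 4 of 4 arrays each. These intervals carry the pooled spread. Without the WT extract of replicate 2 they were −0.02 to 0.64 and −0.04 to 0.63, around the same means. With median centring the means were 0.05 and 0.05, which is 0.29 and 0.29 above the median of the tested probes. In KD1 vs WT they were 0.15 (−0.60 to 0.90) and 0.25 (−0.56 to 1.06), and in WT vs CON 0.13 (−0.62 to 0.88) and −0.06 (−0.86 to 0.75), with adjusted p from 0.760 to 0.957. Without the WT extract of replicate 2, KD1 vs WT turned to −0.40 with both probes (adjusted p = 0.243 and 0.246). WT vs CON turned from −0.06 to 0.61 with A_23_P212665 and moved from 0.13 to 0.76 with A_23_P258221 (adjusted p = 0.165 and 0.142). No order of the 3 cultures was fixed by these values.

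**Figure D4:**
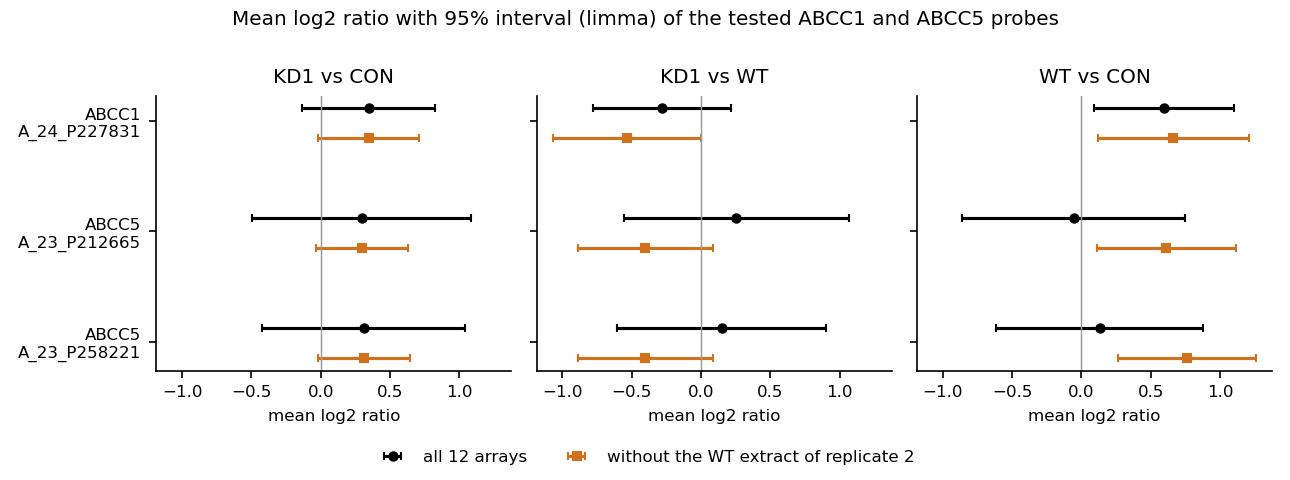
Mean log2 ratio (x axis) with its 95% interval from limma for the 3 tested probes (y axis) in each comparison, from all 12 arrays (circles) and without the WT extract of replicate 2 (squares, where KD1 vs WT and WT vs CON rest on 1 replicate). Without that extract the ABCC5 means lie at −0.40 in KD1 vs WT and at 0.61 and 0.76 in WT vs CON. KD1 vs CON holds no WT extract, so its means are the same by construction. Its intervals differ, because the spread is pooled over the comparisons.

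ABCG2 (breast cancer resistance protein), which works as a dimer and exports topoisomerase inhibitors among other drugs, was dim but detected in most channels. Its background-subtracted signal had a median of 16.6 in KD1, 12.56 in CON and 11.97 in WT, with a range of 6.11 to 23.1 over all cultures. In WT vs CON the log2 ratio was −0.36 and −0.29 in replicate 1 and −0.22 and −0.16 in replicate 2, below 0 on 4 of 4 arrays. The ratio of KD1 to CON was 0.37 and 0.06, then 0.06 and −0.00, and in KD1 vs WT −0.28 and 0.16, then −0.05 and 0.02. The mean of WT vs CON was −0.26 ± 0.09, and fitted without a filter its 95% interval was −0.74 to 0.22 (adjusted p = 0.677). Those of KD1 vs CON and KD1 vs WT were 0.12 (−0.36 to 0.60) and −0.04 (−0.52 to 0.44). The mean of WT vs CON shrank to −0.12 with extracts by least squares, −0.10 with separate channels, −0.04 with normexp and −0.03 with median centring. That of KD1 vs WT turned to 0.25 with separate channels, 0.10 with least squares, 0.08 with median centring or replicate 2 taken through CON, and 0.01 with normexp. ABCG2 exceeded the negative control limit on 8 of 12 arrays and was not tested with the main filter.

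Genes that act beside these pumps were counted by their brightest probe, from lists of general knowledge. Beside the list counts that follow, 1.79% (KD1 vs CON), 1.05% (KD1 vs WT) and 1.37% (WT vs CON) of all tested probes were called. With so few genes tested, 1 called gene does not describe its list. Of 7 other ABC genes known to move drugs, 3 were tested, and 1 was called: ABCC4, which exports cyclic nucleotides and nucleotide analogs as ABCC5 does. ABCC4 (A_24_P16913, chr13:94611572-94613417) was higher in WT than in CON, with log2 ratios of 1.84 and 1.83 in replicate 1 and 1.46 and 1.40 in replicate 2 and a mean of 1.63 ± 0.29 (SD, n = 2, adjusted p = 0.0189). Its probe A_23_P25559 gave 1.43 ± 0.23 (adjusted p = 0.0364), and the third probe was not well above background. In KD1 vs CON the mean of A_24_P16913 was 0.76 (adjusted p = 0.128) and in KD1 vs WT −0.74 (adjusted p = 0.154). The tested probes of other genes within 5 Mb of ABCC4 also leaned this way: 42 of 46 were above 0 in WT vs CON, with a median of 0.90, beside 0.43 for chromosome 13 and −0.03 for all tested probes. In KD1 vs CON 33 of 37 were above 0, with a median of 0.76, beside 0.40 for chromosome 13. In KD1 vs WT 13 of 45 were above 0, with a median of −0.17, beside −0.12.

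Of 35 further ABC genes, 17 to 19 were tested in each comparison and none was called, with medians of 0.12 (KD1 vs CON), 0.02 (KD1 vs WT) and 0.03 (WT vs CON). None of 15 transcription factors of transporter genes was called, with 12 or 13 tested and medians of −0.06, 0.08 and −0.07. Of 23 genes of glutathione synthesis and conjugation, which make the conjugates that ABCC pumps export, 19 were tested and 1 was called: GSTM3, a glutathione transferase, was lower in KD1 than in WT (−1.66 ± 0.40 and, with A_24_P914434, −1.68 ± 0.47, both adjusted p = 0.0249). None of 19 genes of drug oxidation and glucuronidation was called, with 5 to 12 tested. Of 20 carriers for drug uptake, 9 or 10 were tested and SLCO4A1, an organic anion carrier, was higher in WT than in CON (1.90 ± 0.53, adjusted p = 0.0185). The medians of the tested genes of these 3 lists lay between −0.28 and 0.12. Without the WT extract of replicate 2, ABCC4, GSTM3 and SLCO4A1 kept their direction, with mean ratios of 1.84, −1.94 and 1.53, but none passed the threshold (adjusted p = 0.116, 0.115 and 0.129). With normexp their adjusted p were 0.138, 0.109 and 0.110.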

How the data were processed

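Two-color Agilent arrays of 45015 features were labeled from 500 ng RNA. The authors extracted them with Agilent Feature Extraction 10.5.1.1, and per the file headers the deposited intensity values are background-subtracted signals and processed signals after lowess normalization within each array, with a surrogate for signals near background. A log10 ratio of red over green is deposited with them, and the series' value table holds the same ratio as the authors' log2 values. Here log2 ratios were computed from the processed intensities without flagged spots (95 to 188 per array, 0 saturated), turned to the first-named culture, and averaged over spots and dye-swap pairs. Within each array 64.4% to 73.6% of spots per channel were well above background. The number of arrays limits the precision. Each replicate's 4 KD1 arrays shared a slide and the 4 WT vs CON arrays another, so replicate values of KD1 are within-slide values.

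The limma 3.58.1 fit (R 4.3.3, lmFit and eBayes) had 1 coefficient per comparison over 6 replicate values, with 2 residual degrees of freedom because 3 ratios describe 3 extracts, and Benjamini-Hochberg adjustment over 21937 (KD1 vs CON), 24884 (KD1 vs WT) and 26595 (WT vs CON) probes at 0.05. The labels call the replicates biological and say no more of their origin. Both channels of an array carry the same replicate number, so the ratios pair the extracts. The fit was run on simulated data in which all extracts of a probe had the same spread. That run cannot test the pooling where extracts differ in spread. Python 3.11.15 with numpy 2.4.6, pandas 2.3.3 and matplotlib 3.10.9 and R data.table (version 1.17.8) were used. Every member probe is named. Other genes were named where the brightest probe of a listed gene passed the threshold, and genes most like a member only for a called member, of which there were 0. SLCO3A1 was named outside this rule, for a probe that was not its brightest. The members and lists were chosen with earlier results of these data known. Alternatives were normexp (offset 50) with loess, median centring of signals floored at the negative control limit, the authors' value table, no filter, separate channels (Aquantile), extracts by least squares, dye effects per slide, and each replicate left out. A well-above-background filter, KD1 vs WT replicate 2 taken through CON, and the WT extract of replicate 2 left out were added after seeing the data.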

Additional observations from a re-analysis of the deposited data

How the results depend on the processing

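None of the member probes passed the adjusted threshold under any alternative with a test, where the lowest adjusted p was 0.114 (ABCC2 A_23_P44569, well-above-background filter). The mean ratio of ABCC5 changed sign in WT vs CON, to 0.00254 with normexp and 0.0336 with separate channels for A_23_P212665 and to −0.0607 with median centring for A_23_P258221. Without the WT extract of replicate 2 it was −0.40 in KD1 vs WT with both probes, and 0.61 in WT vs CON with A_23_P212665. The cause was not tested. Over all probes, the calls in KD1 vs CON, KD1 vs WT and WT vs CON numbered 393, 261 and 365. They were 26, 1 and 2 with normexp, 1031, 972 and 1033 with median centring, 161, 107 and 131 with extracts by least squares, and 1006, 1019 and 1092 with dye effects per slide. Without a filter the first and last were 254 and 200. The main fit pairs the extracts by replicate number, and in the fit without the replicate block the calls were 201, 126 and 114. With KD1 vs WT replicate 2 taken through CON, WT vs CON had 207. Without the WT extract of replicate 2, KD1 vs WT had 36 and WT vs CON 5. The share of calls that were higher was 43.3%, 27.2% and 56.7%, against 23.6%, 47.1% and 39.5% with median centring, which put the median of the tested probes at −0.24, 0.04 and −0.17. Normexp gave 34.6%, 0% and 100%, of its few calls. Leaving out each replicate in turn gave values with no test. For ABCC5 A_23_P212665 they ran from −0.40 to 0.91 in KD1 vs WT and from −0.72 to 0.61 in WT vs CON, and for A_23_P258221 from −0.40 to 0.70 and from −0.50 to 0.76. Signals near the negative control limit bound what can be said of ABCB1, ABCC2, ABCC3 and ABCG2.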

Other observations

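The extracts of 1 culture were also set against each other, through both other cultures, over the probes that were well above background on all 4 arrays of at least 1 of the 2 extracts. The genes with the largest differences toward the WT extract of replicate 2, named after their values were seen, were AGR2 (5.76 against CON and 6.49 against KD1), EPCAM (5.19 and 5.69), FABP1 (4.61 and 4.90), FGFBP1 (4.98 and 4.59) and ASCL2 (4.55 and 4.30), followed further down by VIL1 (3.46 and 3.61) and PIGR (3.31 and 4.33). AGR2, FABP1, VIL1 and PIGR are genes best known from gut and other secretory epithelia. SLCO3A1, a carrier of organic anions, was called in KD1 vs CON with a probe other than its brightest (A_23_P61623, mean log2 ratio 2.21 ± 0.20, SD, n = 2, adjusted p = 0.0232 from limma, and 0.189 with normexp), while its brightest probe (A_24_P336276) had 0.82 ± 0.03 (adjusted p = 0.203).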
